A study of Mus musculus with 18 samples.

Results

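The 38 genes described here are transcripts of leukocytes and of the immune system: immunoglobulin and B cell receptor genes, general leukocyte genes, monocyte and macrophage genes, the C1q genes of complement, MHC class I and class II genes, T cell markers, the calprotectin genes, a pair of chemokines and the adaptor gene Pstpip1. They were chosen by gene symbol from a list of macrophage, lymphocyte, antigen presentation and immunoglobulin genes. The rule of choice names symbols and uses no measured value, but it was set with earlier results of these data known. Counts of members that pass are therefore not those of a list fixed blind to the data. All 38 symbols were found among the 46983 rows of the deposited count table. The study compared hearts of control mice (wild type, in the submitters' wording) and Salv cKO mice, a conditional knockout of Salvador, an adaptor of the Hippo kinase pathway that limits heart growth. Mice of 8 to 10 weeks either had a coronary artery tied off (the left anterior descending one), which causes a myocardial infarction, or had sham surgery, and RNA was taken 6 weeks later. RNA was either total RNA of the whole heart or RNA from translating ribosome affinity purification (TRAP), a pull-down of tagged ribosomes with the mRNA they carry, which the labels call specific to cardiomyocytes. Libraries were read on the Ion Proton.

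There are 6 groups of 3 libraries. Both genotypes gave total RNA, in each case of infarcted hearts. TRAP RNA comes from infarcted hearts of both genotypes and from sham-operated hearts of both genotypes. Total RNA of sham-operated hearts is not among the libraries analysed here. The labels give neither the promoter that drives the Cre or the ribosome tag nor the allele of either, and they do not say whether the control mice carry Cre. They also do not say that the 3 libraries of a group came from separate animals, so the p-values rest on a spread among libraries that may be technical.

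The adult heart holds resident macrophages and smaller numbers of B cells, T cells and other leukocytes, and infarction draws in more of them. Macrophages make C1q, which starts the classical complement cascade, and present peptides on MHC class II, whereas MHC class I with its light chain B2m and the TAP transporter presents peptides of almost every cell type. Immunoglobulin transcripts come from B cells and plasma cells. Cardiomyocytes are not known as a source of most of these transcripts, so their levels in TRAP RNA and in total RNA of the same kind of heart are set side by side below.

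Library totals ran from 3240871 to 24135877 counts, so that 3 counts in 1 library corresponded to 0.124 to 0.926 CPM, the count relative to its library's sum in the usual unit of edgeR. Without molecular identifiers such floors speak for counting error alone. Cardiomyocyte markers (10 genes such as Myh6 and Tnnt2) summed to between 133829 and 199574 CPM in TRAP libraries and to between 37619 and 68450 CPM in the others, and mitochondrial genes took 15.8 to 29.0% of all counts of total RNA but 0.202 to 0.532% of those of TRAP RNA. Library 2 of the sham control group and library 3 of the sham Salv cKO group held 567 and 659 counts of 4 Y-linked genes, against 0 to 7 in each of the other 16 libraries. The first of these also had the highest summed level of 35 interferon response genes, 1185 CPM against 389 to 717 CPM in the other 17. For the comparisons that use sham libraries, counts and medians without these 2 libraries are given beside the others.

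Levels below are CPM scaled by TMM, a factor per library computed by edgeR over all 18 libraries, and libraries 1, 2 and 3 of a group are always given in that order. Each fold change is on the log2 scale and comes, like its standard error (SE), from edgeR's quasi-likelihood fit, and a member is said to pass, to rise or to fall where its p, adjusted over all genes tested, was below 0.05. In these bulk libraries fewer cells of a type and less RNA per cell cannot be told apart. Of the 38 members, 34 had enough counts to be tested in the fit of TRAP RNA, 34 in the fit of total RNA and 35 in the fit of both kinds of RNA from infarcted hearts. Cd79a, Cd3e and Cd8a passed the low-count filter in none of these fits, and Cd79b passed it only in the last.

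Most of the immune transcripts differed between TRAP and total RNA of infarcted hearts, in both directions. Of 35 members tested, 14 were higher and 12 lower in TRAP RNA. Among all genes tested 74.2% passed, 34.4% higher and 39.9% lower, so that the number passing is near that background. S100a9 (log2 3.08), Cd52 (2.48), S100a8 (2.23), Pstpip1 (2.15) and C1qa (2.06) were the most raised in TRAP RNA, and Ptprc (-2.77), Ccr2 (-2.08) and Adgre1 (-1.71) the most lowered. A positive fold change was found for 20 of 35 members, against 46.2% of all genes, and the median was 0.20 for the members and -0.15 for all genes. These signs depend on the scaling: with library totals in place of TMM the median of all genes moved to -0.74 and that of the members to -0.41, 13 members were positive, and 7 passed as higher and 16 as lower.

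In total RNA of infarcted hearts most fold changes of Salv cKO over control were positive, and Cxcl14 was the only member to pass. A positive fold change was found for 30 of 34 members, against 51.9% of all genes, with a median of 0.57 against 0.02 for all genes; with library totals 28 were positive. At an unadjusted p under 0.05, 18 members were higher, against 7.37% of all genes. In 13 members every Salv cKO library lay above every control library, against 9.46% of all genes, and the count that passed, 1 of 34, stands beside 0.255% of all genes. The 4 members with a negative fold change were Igkc (-1.53), Ighm (-1.38), S100a8 (-0.34) and Mrc1 (-0.085). Of markers of other cells none passed, and fold changes were positive for 5 of 5 erythroid genes (median 1.44), 8 of 9 fibroblast genes (0.30), 7 of 8 endothelial genes (0.18), 7 of 10 cardiomyocyte genes (0.20) and 3 of 6 mural genes (0.06), the summed level of the last being 779 ± 177 CPM in control and 721 ± 125 in Salv cKO (SD, n = 3 libraries each). Their part in the result was not tested.

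In TRAP RNA of the same kind of heart the sign was mostly the opposite. Of 34 members 24 had a negative genotype fold change, against 49.5% of all genes, with a median of -0.33. By edgeR 0 members passed and 3 had an unadjusted p under 0.05, namely Igkc (-1.48), Ighm (-0.95) and S100a8 (1.89). Among all genes 0.334% passed and 7.36% had an unadjusted p under 0.05. DESeq2 gave an adjusted p for 36 members, of which 0 passed, and 72 of all genes passed there. Ptprc, Cd74, H2-Aa and H2-Eb1 were lower in every Salv cKO library than in every control library, and 6.95% of all genes were. Ptprc rests on few counts there, 3 to 6 a library in Salv cKO and 8 to 14 in control. Of markers of other cells in the same TRAP libraries fold changes were negative for 4 of 4 erythroid genes (median -0.88), 7 of 10 cardiomyocyte genes (-0.10), 5 of 8 endothelial genes (-0.14), 3 of 6 mural genes (-0.01) and 2 of 9 fibroblast genes (median 0.20). Their summed levels in control and Salv cKO were 314 ± 84.3 and 158 ± 49.8 CPM for erythroid, 589 ± 99.3 and 434 ± 78.5 for endothelial and 180889 ± 10361 and 149491 ± 13888 for cardiomyocyte genes (SD, n = 3 libraries each), and their part in the result was not tested. The difference between the genotype effects in the 2 kinds of RNA, tested as an interaction, was negative for 29 of 35 members, against 52.9% of all genes, with a median of -0.77 (-0.04 for all genes). It passed for Cd52 (change -2.11 in log2, SE 0.48, adjusted p = 0.0496) and for H2-Eb1 (change -1.65 in log2, SE 0.34, adjusted p = 0.0301), 2 of 35 against 0.43% of all genes, and 17 members were negative at an unadjusted p under 0.05, against 8.71% of all genes. Neither call held when libraries were left out: Cd52 lost it without any 1 of the 12 libraries other than control library 3 of total RNA (adjusted p up to 0.138), and H2-Eb1 lost it in 8 of 12 such fits (up to 0.0860, without control library 1 of total RNA).

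**Figure D1:**
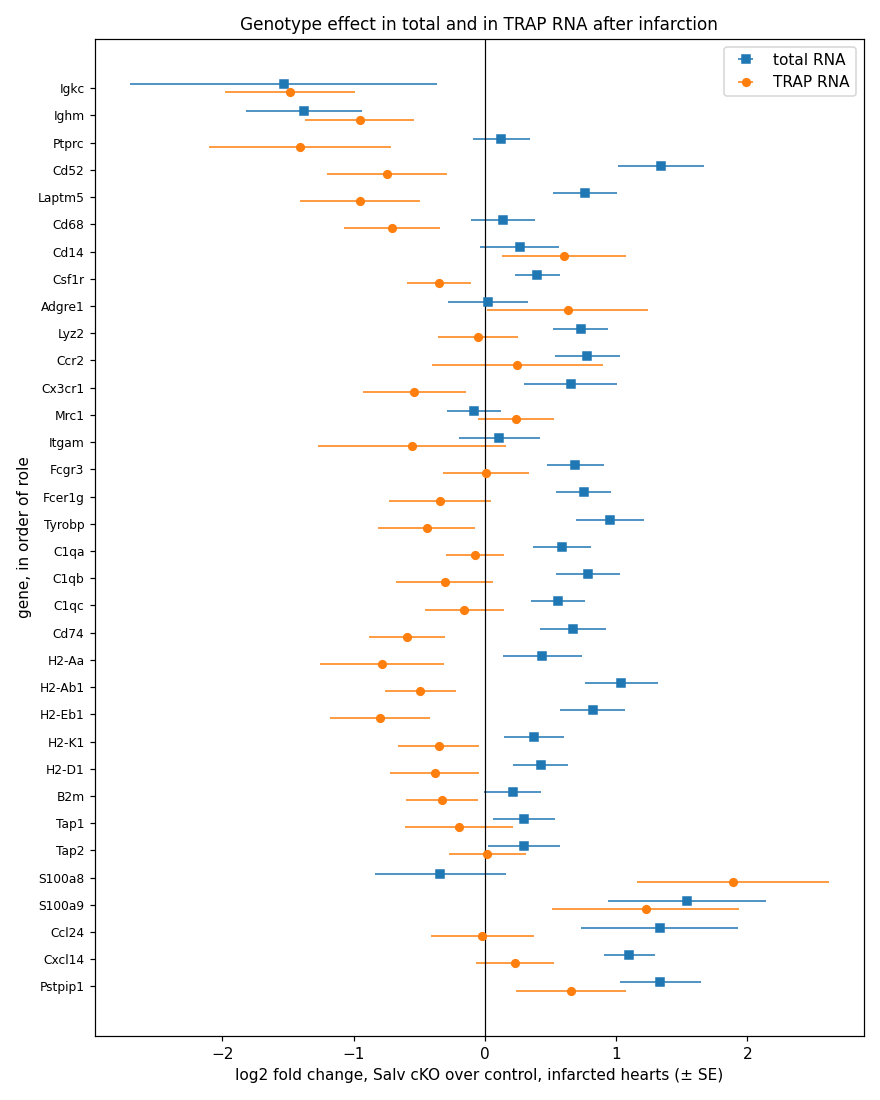
Genotype effect on each tested member in infarcted hearts. The horizontal axis is the log2 fold change of Salv cKO over control with bars of 1 SE (3 libraries a group), blue squares are total RNA and orange circles TRAP RNA. For 30 of 34 members the square lies right of zero, and for 24 of 34 the circle lies left of it.

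After sham surgery 3 of 34 members passed between the genotypes in TRAP RNA, against 2.55% of all genes. Pstpip1 (2.03) and the chemokine gene Ccl24 (1.66) were higher in Salv cKO, and the peptide transporter gene Tap2 (-1.68) was lower. In 8 members the groups of libraries did not overlap, against 21% of all genes. A positive fold change was found for 18 members, with a median of 0.07, and both moved with single libraries. Without the 2 libraries with Y-linked counts 27 of 35 members were positive (median 0.43) and 2 passed, Tap2 and C1qb. Without control library 2 alone 24 of 35 were positive (median 0.28), and without control library 3 alone 14 of 34 (median -0.22). With library totals H2-Ab1 passed as well, which made 2 higher and 2 lower. The count fell to 1 without Salv cKO library 2 (Tap2) and to 2 without Salv cKO library 3, and rose to 5 without control library 1. Of all genes 104, 105 and 310 passed in these fits, against 291 with all libraries. Without the 2 libraries with Y-linked counts 84 of all genes passed, and with library totals 440.

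Infarction against sham surgery raised the immunoglobulin transcripts in TRAP RNA of control hearts: Igkc and Ighm passed, 2 of 34 members against 1.08% of all genes, and 4 members did not overlap, against 19.1%. In Salv cKO hearts 4 members passed, against 18.2% of all genes: Igkc and Tap2 rose, and Ccl24 and C1qa fell. Groups did not overlap for 11 members there, against 35.6% of all genes. Under library totals 0 members and 0 of all genes passed in control hearts. In Salv cKO hearts 4 members then passed as higher and 1 as lower, and 2885 of all genes passed. The median of all genes there moved from 0.02 to 0.35 and the members with a positive fold change from 12 to 18. Leaving out sham control library 2 raised the count in control hearts to 4 (H2-Eb1 and H2-K1 added), and leaving out infarcted control library 1, sham control library 1 or sham control library 3 took it to 0. Calls over all genes moved likewise, from 123 with all libraries to 628 without sham control library 2. Without the other libraries just named, in that order, 0, 6 and 0 of all genes passed. The sign of the members' median in control hearts also turned: 15 of 34 members were positive (median -0.09) with all libraries, 25 of 35 (0.40) without sham control library 2, and 25 of 35 (0.40) without the 2 libraries with Y-linked counts, where 5 passed (Igkc, Ighm, H2-Aa, H2-Eb1 and H2-K1). In Salv cKO hearts the count was 9 without infarcted library 3, 2 without infarcted library 2 and 7 without the 2 libraries with Y-linked counts (C1qb, Csf1r and H2-K1 added). Of all genes 1919, 1397 and 1546 passed there, against 2069 with all libraries. In control hearts 673 of all genes passed without the 2 libraries with Y-linked counts.

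The genotype effect was not shown to differ between infarcted and sham TRAP RNA for any member. By edgeR 0 of 34 passed the interaction (0% of all genes did), and 7 had an unadjusted p under 0.05 against 12.6% of all genes. DESeq2 gave an adjusted p for only 14 members, of which 0 passed, while 96 of all genes passed there. The interaction was positive for 11 of 34 members (median -0.25), and for 6 of 35 (median -0.63) without the 2 libraries with Y-linked counts, where 0 passed as well. The largest differences were those of Tap2 (change 1.70 in log2, SE 0.45, adjusted p = 0.175) and Ccl24 (change -1.68 in log2, SE 0.54, adjusted p = 0.236). The comparisons within TRAP RNA share groups of libraries, since each infarction effect and each genotype effect uses one group of the other.

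**Figure D2:**
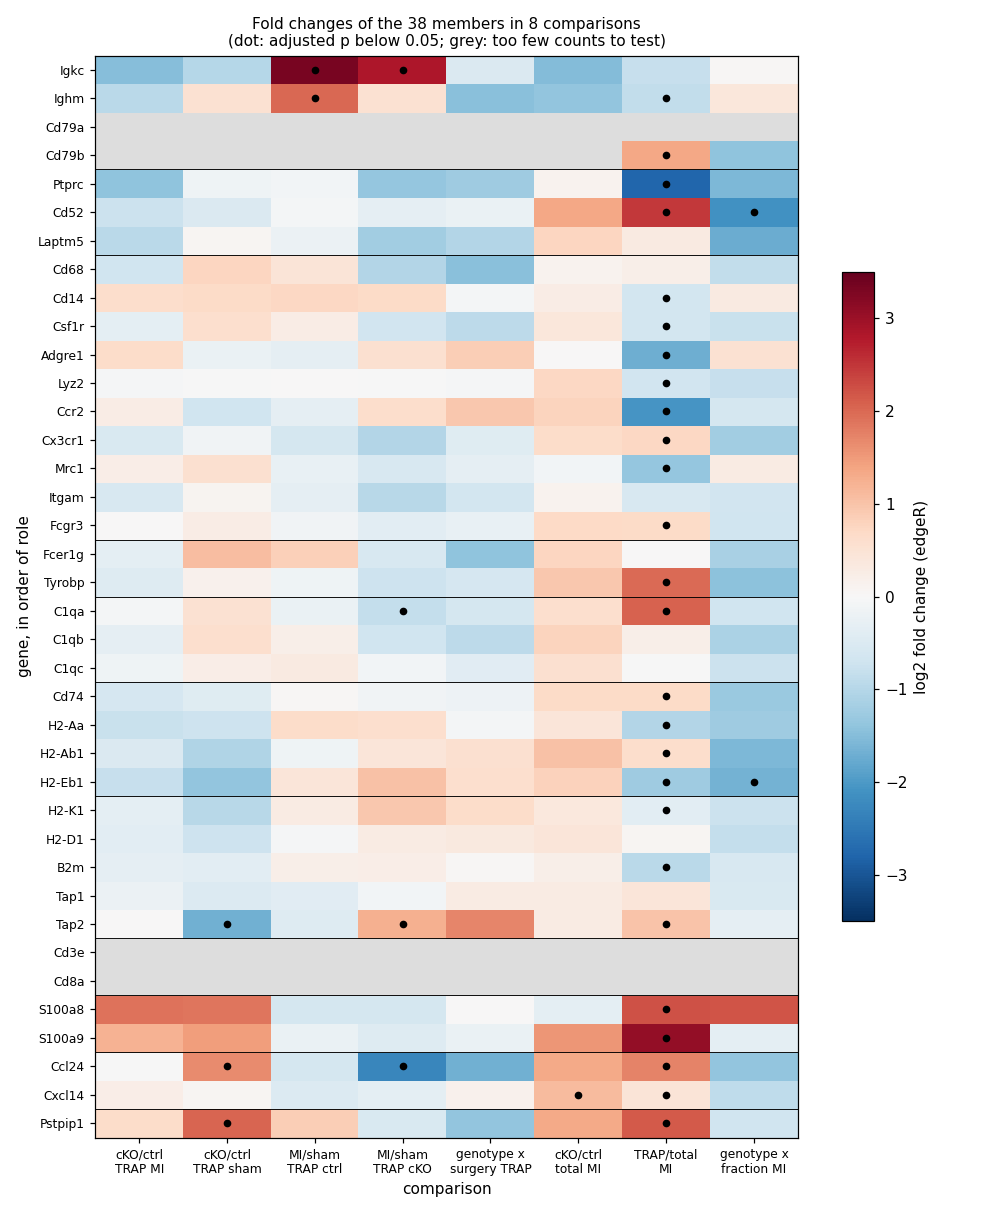
Log2 fold changes of the 38 members (rows, in order of role) in the 8 comparisons (columns), red for higher and blue for lower in the first-named group. A dot marks an adjusted p below 0.05 in edgeR and grey marks members with too few counts; dots are dense only in the column of TRAP against total RNA, where 26 members passed.

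Igkc, the constant region of the kappa light chain, lies on chr6:70726435-70726966 (GENCODE M21, GRCm38, as are all gene positions here). It stood at 15.9, 31.6 and 149.6 CPM in total RNA of control and at 7.89, 47.5 and 11.98 in total RNA of Salv cKO. Igkc in TRAP RNA stood at 37.96, 13.5 and 56.3 in infarcted control, 18.9, 9.87 and 8.996 in infarcted Salv cKO, 2.20, 6.81 and 2.21 in sham control and 1.52, 2.67 and 1.19 in sham Salv cKO. Control library 3 of total RNA was the highest of all, and every infarcted TRAP library lay above every sham TRAP library. Igkc had 6 to 29 counts in sham control libraries and 4 to 7 in sham Salv cKO libraries, so fold changes against them rest on few counts. Infarction raised Igkc in control (change 3.32 in log2, SE 0.57, adjusted p = 0.0391) and in Salv cKO (change 2.82 in log2, SE 0.68, adjusted p = 0.0116). The first call was lost without infarcted control library 1 (adjusted p = 0.250), sham control library 1 (0.119) or sham control library 3 (0.172), and the second without sham Salv cKO library 3 (0.0738). Between genotypes in total RNA the groups of Igkc overlapped (change -1.53 in log2, SE 1.17, adjusted p = 0.602).

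Ighm is the mu heavy chain constant region. It stood at 14.8, 36.8 and 56.4 CPM in total RNA of control and 12.6, 15.97 and 12.3 in total RNA of Salv cKO. Ighm in TRAP RNA stood at 16.8, 10.7 and 23.1 in infarcted control, 3.62, 11.9 and 10.9 in infarcted Salv cKO, 4.76, 5.11 and 2.97 in sham control and 3.79, 8.76 and 5.07 in sham Salv cKO. All infarcted control TRAP libraries were above all sham control TRAP libraries, and the 2 Salv cKO groups of TRAP RNA overlapped. Infarction raised Ighm in control (change 2.01 in log2, SE 0.45, adjusted p = 0.0391), a call lost without any of the 3 infarcted control libraries or without sham control libraries 1 or 3 (adjusted p from 0.0821 to 0.250). In Salv cKO the infarction fold change was 0.54 (adjusted p = 0.450). Ighm was lower in TRAP RNA than in total RNA (change -0.85 in log2, SE 0.36, adjusted p = 0.0459), and of the 12 fits that each left out 1 library the call held only without control library 1 of total RNA, control library 3 of TRAP RNA or Salv cKO library 2 of TRAP RNA. Other transcripts of the same cells were scarce: Cd79a and Cd79b, the signalling chains of the B cell receptor, had 0 to 1 and 1 to 12 counts in the TRAP libraries and 3 to 13 and 1 to 15 counts in those of total RNA. Cd79b passed in the comparison of TRAP with total RNA (change 1.36 in log2, SE 0.48, adjusted p = 0.0144), at 0.503, 0.0926 and 0.508 CPM in total control, 0.585, 1.23 and 0.339 in total Salv cKO, 2.06, 0.888 and 1.93 in TRAP control, 1.42, 0.914 and 0.947 in TRAP Salv cKO, 2.93, 0.567 and 0.228 in sham control and 0.379, 1.14 and 2.39 in sham Salv cKO. With so few counts its TRAP and total libraries overlapped, and the call was lost with library totals (adjusted p = 0.126).

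Ptprc and Cd52, both general leukocyte surface genes, went in opposite directions between the kinds of RNA. Ptprc encodes the phosphatase CD45, and had 8.58, 8.52 and 8.12 CPM in total control, 8.41, 10.5 and 8.14 in total Salv cKO, 2.40, 1.42 and 2.31 in TRAP infarcted control, 0.775, 0.548 and 0.947 in TRAP infarcted Salv cKO, 2.20, 2.55 and 1.83 in sham control and 3.79, 1.52 and 0.597 in sham Salv cKO. All TRAP libraries lay below all libraries of total RNA (change -2.77 in log2, SE 0.26, adjusted p = 2.42e-09 for TRAP against total). Infarcted Salv cKO TRAP libraries also lay below all infarcted control ones (change -1.41 in log2, SE 0.70, adjusted p = 0.700), without passing. They held 3 to 6 counts of Ptprc each, against 8 to 14 in those control libraries. Cd52, a short cell surface glycopeptide, had 1.41, 1.48 and 1.78 CPM in total control and 4.09, 3.69 and 3.73 in total Salv cKO. Cd52 in TRAP RNA had 16.8, 11.4 and 24.1 in infarcted control, 6.20, 11.7 and 13.5 in infarcted Salv cKO, 18.3, 30.4 and 6.77 in sham control and 11.7, 13.7 and 12.5 in sham Salv cKO. In total RNA its genotypes did not overlap and the higher was Salv cKO (change 1.34 in log2, SE 0.33, adjusted p = 0.145), whereas in infarcted TRAP RNA they overlapped and the fold change was -0.75. TRAP libraries of infarcted hearts were all above those of total RNA (change 2.48 in log2, SE 0.24, adjusted p = 3.63e-09). Cd52 overlaps an exon of Crybg2 on the opposite strand, and because the strand setting of the counting is not given in the sources used here, reads of the 2 genes cannot be told apart.

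Laptm5, a lysosomal membrane protein of blood cells, had 9.21, 12.1 and 12.9 CPM in total control, 13.7, 24.5 and 18.8 in total Salv cKO, 26.1, 20.1 and 28.7 in TRAP infarcted control, 7.23, 10.2 and 21.8 in TRAP infarcted Salv cKO, 35.5, 38.6 and 11.6 in sham control and 24.3, 36.6 and 27.2 in sham Salv cKO. Salv cKO exceeded control in every library of total RNA, and sham Salv cKO exceeded infarcted Salv cKO in every TRAP library. Neither difference passed (change 0.76 in log2, SE 0.25, adjusted p = 0.248 for genotype in total RNA and change -1.22 in log2, SE 0.47, adjusted p = 0.0907 for infarction in Salv cKO). The summed level of the 3 genes was 21.4 ± 1.90 CPM in total control, 31.8 ± 6.32 in total Salv cKO, 44.4 ± 11.2 in TRAP infarcted control and 24.3 ± 11.1 in TRAP infarcted Salv cKO (SD, n = 3 libraries each).

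**Figure D3:**
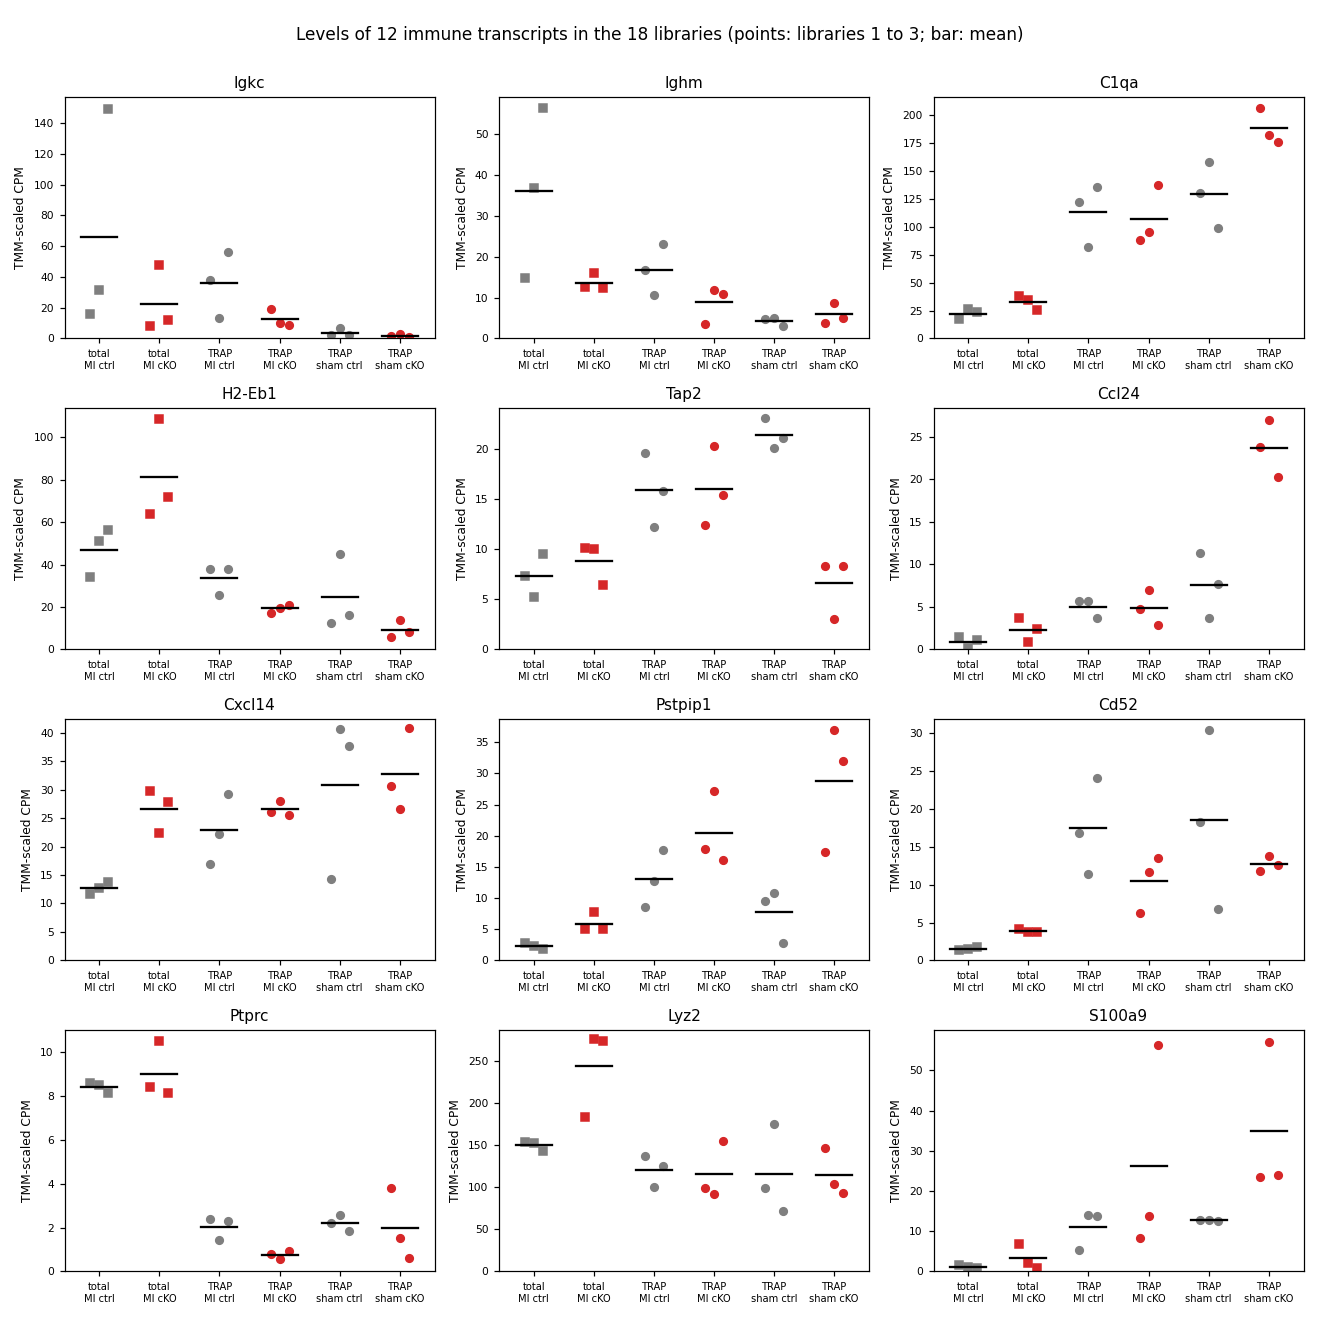
Levels of 12 members in every library (vertical axis, TMM-scaled CPM), with 1 point a library, squares for total and circles for TRAP RNA, grey for control and red for Salv cKO, and a bar at the mean of 3. Igkc and Ighm are low in all 6 sham libraries, Tap2 is low and Ccl24 high in the 3 sham Salv cKO libraries, and Cd52 and C1qa are higher in TRAP than in total RNA while Ptprc is lower.

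Of the 10 monocyte and macrophage members 6 were lower and 2 higher in TRAP than in total RNA, and Cd68 and Itgam did not pass. Among all genes 39.9% passed as lower and 34.4% as higher, 74.2% in either direction. Lyz2, the macrophage lysozyme and the highest of them per kilobase of exon in total RNA, had 154, 153 and 144 CPM in total control, 183, 276 and 274 in total Salv cKO, 137, 100 and 125 in TRAP infarcted control, 99.5, 92.5 and 155 in TRAP infarcted Salv cKO, 99.6, 176 and 71.5 in sham control and 146, 104 and 93.4 in sham Salv cKO. Every total Salv cKO library was above every total control library (change 0.73 in log2, SE 0.21, adjusted p = 0.214, not passing), while the TRAP groups overlapped throughout. It was lower in TRAP RNA (change -0.67 in log2, SE 0.15, adjusted p = 3.90e-04). Lyz2 shares 15.4% of its 50-base windows with the neighbouring Lyz1, so reads of the 2 could be split by the counting.

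Csf1r is the receptor for the growth factor that keeps macrophages alive. It had 36.2, 34.2 and 33.7 CPM in total control, 39.98, 49.4 and 45.3 in total Salv cKO, 22.7, 28.1 and 33.3 in TRAP infarcted control, 19.8, 20.7 and 25.3 in TRAP infarcted Salv cKO, 21.97, 30.4 and 16.96 in sham control and 34.9, 39.2 and 28.1 in sham Salv cKO. Total Salv cKO lay above total control throughout, by a log2 of 0.40 that did not pass, and infarcted Salv cKO lay below sham Salv cKO throughout in TRAP RNA (change -0.66 in log2, SE 0.25, adjusted p = 0.0698). Csf1r was lower in TRAP RNA than in total RNA (change -0.64 in log2, SE 0.14, adjusted p = 1.83e-04). One of its exons overlaps Hmgxb3 on the opposite strand.

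Ccr2 and Cx3cr1, the chemokine receptors that mark recruited monocytes and resident or patrolling cells respectively, differed in sign. Ccr2 had 8.61, 12.8 and 7.36 CPM in total control, 12.9, 18.2 and 17.3 in total Salv cKO, 2.58, 4.08 and 1.35 in TRAP infarcted control, 1.16, 3.84 and 4.73 in TRAP infarcted Salv cKO, 2.20, 5.67 and 2.21 in sham control and 1.90, 0.381 and 3.58 in sham Salv cKO. All TRAP libraries, sham included, were below all total RNA libraries (change -2.08 in log2, SE 0.29, adjusted p = 1.27e-06 in infarcted hearts), and in total RNA all Salv cKO libraries were above all control libraries (change 0.78 in log2, SE 0.25, adjusted p = 0.245). Cx3cr1 had 3.72, 7.31 and 5.08 CPM in total control, 4.97, 11.95 and 7.80 in total Salv cKO, 11.9, 8.88 and 18.3 in TRAP infarcted control, 4.26, 8.23 and 14.9 in TRAP infarcted Salv cKO, 19.8, 26.4 and 12.8 in sham control and 16.7, 19.4 and 17.3 in sham Salv cKO. Its kinds of RNA overlapped, with TRAP higher (change 0.73 in log2, SE 0.29, adjusted p = 0.0308), and the call was lost without library 1 or 3 of either genotype of total RNA, or library 3 of either genotype of TRAP RNA, as it was with library totals (adjusted p = 0.740). Infarcted Salv cKO lay below sham Salv cKO in TRAP RNA throughout (change -1.03 in log2, SE 0.40, adjusted p = 0.0836), without passing.

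Adgre1 and Mrc1, which encode the F4/80 antigen and the mannose receptor CD206 of tissue macrophages, were both lower in TRAP RNA. Adgre1 had 9.99, 20.2 and 9.05 CPM in total control, 10.7, 13.8 and 14.6 in total Salv cKO, 4.98, 2.31 and 2.12 in TRAP infarcted control, 4.13, 2.74 and 7.81 in TRAP infarcted Salv cKO, 6.59, 4.82 and 1.06 in sham control and 5.31, 3.05 and 1.49 in sham Salv cKO. Each infarcted TRAP library was below each total RNA library (change -1.71 in log2, SE 0.28, adjusted p = 1.35e-05), and the genotypes overlapped in both kinds of RNA. Mrc1 had 39.7, 57.8 and 36.9 CPM in total control, 40.2, 39.2 and 45.1 in total Salv cKO, 13.9, 10.8 and 21.01 in TRAP infarcted control, 12.4, 17.00 and 24.6 in TRAP infarcted Salv cKO, 17.9, 18.2 and 17.04 in sham control and 30.3, 20.95 and 26.3 in sham Salv cKO. TRAP again lay below total RNA in every infarcted library (change -1.36 in log2, SE 0.18, adjusted p = 6.01e-07). In sham TRAP RNA the Salv cKO libraries of Mrc1 were all above the control libraries, by a log2 of 0.55 that did not pass (adjusted p = 0.316).

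Cd14, a co-receptor for lipopolysaccharide, had 6.73, 7.78 and 4.65 CPM in total control, 4.75, 9.16 and 8.93 in total Salv cKO, 2.58, 2.84 and 5.20 in TRAP infarcted control, 5.42, 5.85 and 4.73 in TRAP infarcted Salv cKO, 2.20, 1.99 and 2.05 in sham control and 3.41, 1.14 and 5.07 in sham Salv cKO. It was lower in TRAP RNA than in total RNA with overlap (change -0.65 in log2, SE 0.25, adjusted p = 0.0250), and not so without Salv cKO library 2 or 3 of total RNA or control library 1 or 2 of TRAP RNA (adjusted p up to 0.0668). In TRAP RNA of control hearts all infarcted libraries were above all sham libraries (change 0.73 in log2, SE 0.51, adjusted p = 0.579), without passing. Fcgr3, a low-affinity receptor for IgG, had 10.1, 9.16 and 8.46 CPM in total control, 16.3, 16.1 and 11.5 in total Salv cKO, 12.9, 15.6 and 26.4 in TRAP infarcted control, 19.6, 16.5 and 18.7 in TRAP infarcted Salv cKO, 17.9, 29.2 and 12.2 in sham control and 18.6, 32.8 and 19.1 in sham Salv cKO. Salv cKO exceeded control in all libraries of total RNA (change 0.69 in log2, SE 0.21, adjusted p = 0.243), and TRAP exceeded total RNA with overlap (change 0.68 in log2, SE 0.18, adjusted p = 0.00173; adjusted p = 0.667 with library totals). Fcgr3 shares 9.58% of its 50-base windows with Fcgr2b. The remaining pair passed nowhere: the macrophage lysosomal gene Cd68 ranged from 4.02 to 17.5 CPM and the integrin gene Itgam (CD11b) from 0 to 5.37 CPM over the 18 libraries. Itgam shares 66.3% of its 50-base windows with the overlapping Gm49368, so its counts are uncertain.

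Fcer1g and Tyrobp encode the small adaptors, with signalling motifs named ITAM, that activating receptors of myeloid cells need. Tyrobp had 5.70, 5.92 and 4.99 CPM in total control, 12.6, 11.7 and 7.12 in total Salv cKO, 30.6, 29.3 and 43.6 in TRAP infarcted control, 17.3, 19.9 and 39.1 in TRAP infarcted Salv cKO, 30.4, 60.2 and 21.6 in sham control and 36.01, 49.1 and 38.8 in sham Salv cKO. All TRAP libraries lay above all total RNA libraries (change 1.97 in log2, SE 0.20, adjusted p = 1.16e-08), and within total RNA all Salv cKO libraries lay above all control libraries (change 0.96 in log2, SE 0.26, adjusted p = 0.194). The interaction of genotype with the kind of RNA was -1.43 (adjusted p = 0.101). Fcer1g also separated the genotypes of total RNA (change 0.75 in log2, SE 0.21, adjusted p = 0.201) and did not pass between TRAP and total RNA (log2 0.012, SE 0.21). It ranged from 5.86 to 22.5 CPM over the 18 libraries.

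The C1q genes encode the A, B and C chains of one protein, which are needed together, and lie within 18.674 kb of each other (chr4:136880129-136898803). C1qa had 17.2, 26.4 and 23.3 CPM in total control and 38.1, 34.4 and 25.8 in total Salv cKO. C1qa in TRAP RNA had 122, 82.2 and 136 in infarcted control, 88.4, 95.4 and 138 in infarcted Salv cKO, 131, 159 and 98.9 in sham control and 207, 182 and 176 in sham Salv cKO. All TRAP libraries were above all total RNA libraries (change 2.06 in log2, SE 0.17, adjusted p = 1.93e-10), and sham Salv cKO was the highest group, above every other TRAP library. C1qa fell with infarction in Salv cKO (change -0.84 in log2, SE 0.22, adjusted p = 0.0124), a call lost without infarcted Salv cKO library 1 (adjusted p = 0.0751) or 2 (0.0630) and with library totals (0.120). In control its infarction fold change was -0.22 (SE 0.22), and the difference between the genotypes was -0.62 (adjusted p = 0.430).

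The other 2 chains did not follow C1qa between the kinds of RNA. C1qb was 0.20 (adjusted p = 0.260) and C1qc -0.0056 (adjusted p = 0.975) in the log2 of TRAP over total RNA, neither of which passed. C1qb ranged from 32.4 to 87.8 CPM in total RNA and from 33.0 to 123 CPM in TRAP RNA, and C1qc from 20.8 to 39.4 and from 14.0 to 36.6 CPM. In total RNA the genotype fold changes were 0.59 for C1qa, 0.79 for C1qb and 0.56 for C1qc, and none passed. The summed level of the trio was 87.1 ± 16.4 CPM in total control against 137 ± 21.7 in total Salv cKO, and 211 ± 44.2 against 188 ± 34.0 in TRAP RNA of infarcted hearts (SD, n = 3 libraries each).

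MHC class II presents peptides to helper T cells, and Cd74 is the invariant chain that guards its groove. Among the MHC class II and class I members 7 lie in the major histocompatibility complex on chromosome 17, within 1.271 Mb (chr17:33996017-35267499), while Cd74 and B2m lie elsewhere. Cd74 had 61.8, 106 and 72.8 CPM in total control and 121, 160.4 and 95.5 in total Salv cKO. Cd74 in TRAP RNA had 163, 187 and 233 in infarcted control, 122, 124 and 138 in infarcted Salv cKO, 149, 264 and 141 in sham control and 87.9, 207 and 119 in sham Salv cKO. Infarcted Salv cKO lay below infarcted control in every TRAP library (change -0.59 in log2, SE 0.29, adjusted p = 0.711), and in total RNA Salv cKO was higher with overlap (change 0.67 in log2, SE 0.25, adjusted p = 0.293). The interaction was -1.29 (adjusted p = 0.0645), which passed by DESeq2. Cd74 was higher in TRAP than in total RNA (change 0.68 in log2, SE 0.16, adjusted p = 4.85e-04), but not with library totals (adjusted p = 0.763).

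H2-Eb1, the beta chain of the I-E molecule, was the MHC class II member that passed the interaction of genotype and kind of RNA. It had 33.98, 50.9 and 56.1 CPM in total control and 63.9, 109 and 72.00 in total Salv cKO. H2-Eb1 in TRAP RNA had 37.8, 25.7 and 37.8 in infarcted control, 17.04, 19.7 and 21.1 in infarcted Salv cKO, 12.5, 44.8 and 16.4 in sham control and 6.06, 13.7 and 8.36 in sham Salv cKO. Salv cKO was above control in all total RNA libraries (change 0.82 in log2, SE 0.25, adjusted p = 0.238) and below control in all infarcted TRAP libraries (change -0.80 in log2, SE 0.38, adjusted p = 0.686). The 2 effects differed (change -1.65 in log2, SE 0.34, adjusted p = 0.0301 for the interaction). Infarcted Salv cKO lay above sham Salv cKO throughout (change 1.02 in log2, SE 0.43, adjusted p = 0.111). H2-Eb1 was lower in TRAP RNA than in total RNA (change -1.25 in log2, SE 0.17, adjusted p = 6.50e-07).

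H2-Aa and H2-Ab1 encode the alpha and beta chains of the I-A molecule. H2-Aa had 92.8, 171 and 112 CPM in total control, 108, 230.2 and 163 in total Salv cKO, 104, 87.4 and 83.8 in TRAP infarcted control, 43.9, 59.6 and 55.4 in TRAP infarcted Salv cKO, 51.6, 94.8 and 27.00 in sham control and 29.9, 58.7 and 16.1 in sham Salv cKO. Its infarcted TRAP libraries separated by genotype (change -0.78 in log2, SE 0.47, adjusted p = 0.839) and its total RNA libraries did not (0.44). H2-Ab1 had 34.7, 49.3 and 64.2 CPM in total control, 74.2, 137 and 87.6 in total Salv cKO, 139, 121 and 115 in TRAP infarcted control, 65.98, 83.9 and 115 in TRAP infarcted Salv cKO, 111, 199 and 92.4 in sham control and 61.4, 81.9 and 50.7 in sham Salv cKO. Here the total RNA libraries separated by genotype (change 1.04 in log2, SE 0.28, adjusted p = 0.201), the lowest infarcted control and highest infarcted Salv cKO TRAP libraries nearly met, and all sham Salv cKO libraries were below all sham control ones (change -1.06 in log2, SE 0.28, adjusted p = 0.0525). The last of these passed without sham control library 3 (adjusted p = 0.0125) and by DESeq2 (0.0108). The 2 chains of this dimer also differed in sign between the kinds of RNA, with H2-Aa lower in TRAP (change -1.03 in log2, SE 0.18, adjusted p = 3.73e-05) and H2-Ab1 higher (change 0.61 in log2, SE 0.18, adjusted p = 0.00462; adjusted p = 0.958 with library totals). Sham control library 2, 1 of the 2 libraries with Y-linked counts, was the highest TRAP library for Cd74, H2-Ab1 and H2-Eb1 and the highest of the sham libraries for H2-Aa.

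Promoters of MHC class II genes share a Y box, whose core is CCAAT, and the windows of the 2 class II members in the RefSeq table (GRCm38.p6; 250 bases before to 50 after the start) are shown for that reason, with CCAAT on either strand in capitals. H2-Aa lies on the minus strand (window chr17:34287774-34288073), and its match is on the opposite strand, 48 bases before the start. H2-Eb1 lies on the plus strand (window chr17:34305617-34305916), with matches 59 bases before the start on the opposite strand and 35 bases before it on its own strand.
H2-Aa: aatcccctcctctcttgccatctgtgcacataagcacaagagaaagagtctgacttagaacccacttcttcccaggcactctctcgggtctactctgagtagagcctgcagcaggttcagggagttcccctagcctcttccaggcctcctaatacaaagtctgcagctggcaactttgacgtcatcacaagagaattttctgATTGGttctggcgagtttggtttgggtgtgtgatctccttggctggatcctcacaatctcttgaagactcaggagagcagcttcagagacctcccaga
H2-Eb1: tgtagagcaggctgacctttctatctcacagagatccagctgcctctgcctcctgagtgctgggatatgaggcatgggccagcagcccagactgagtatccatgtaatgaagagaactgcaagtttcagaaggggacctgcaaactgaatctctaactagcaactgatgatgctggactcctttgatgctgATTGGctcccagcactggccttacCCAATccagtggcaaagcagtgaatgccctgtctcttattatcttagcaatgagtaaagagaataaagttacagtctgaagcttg
CCAAT was held by 37.4% of all 32817 promoter windows of this length, and of the 25 members with a window 10 did (B2m, Cd68, Cx3cr1, H2-Aa, H2-D1, H2-Eb1, H2-K1, Laptm5, Mrc1 and Tap1). H2-Ab1 and Cd74 have no window in the table. The PU.1 core GAGGAA, named for a factor of myeloid cells, was in 28.3% of windows and in those of 12 members, among them Ptprc, Itgam, C1qb and C1qc. A match describes these letters only.

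The MHC class I group joins the heavy chains H2-K1 and H2-D1, their light chain B2m and the transporter genes Tap1 and Tap2, which load peptides. B2m had 245, 342 and 245 CPM in total control, 343, 328 and 277 in total Salv cKO, 136, 135 and 237 in TRAP infarcted control, 133, 124 and 145 in TRAP infarcted Salv cKO, 114, 214 and 106 in sham control and 105, 139 and 94.6 in sham Salv cKO. It was lower in TRAP RNA than in total RNA (change -0.95 in log2, SE 0.15, adjusted p = 8.39e-06), with genotypes that overlapped in each pair of groups. H2-K1 had 95.03, 168 and 129.9 CPM in total control, 169, 180.0 and 152 in total Salv cKO, 111, 132 and 139.7 in TRAP infarcted control, 83.02, 93.96 and 121 in TRAP infarcted Salv cKO, 64.1, 167 and 72.5 in sham control and 65.2, 48.4 and 39.7 in sham Salv cKO. Its infarcted Salv cKO libraries lay above its sham Salv cKO libraries throughout (change 0.93 in log2, SE 0.32, adjusted p = 0.0584). Its lower level in TRAP RNA (change -0.37 in log2, SE 0.15, adjusted p = 0.0286) did not pass without library 2 of either genotype of total RNA, library 1 of either genotype of TRAP RNA, or Salv cKO library 2 of TRAP RNA (adjusted p up to 0.0781). H2-D1 ranged from 101.5 to 307 CPM over the 18 libraries, Tap1 from 10.3 to 43.1, and neither passed in any comparison. The heavy chain genes share 9.63% (H2-K1) and 12.8% (H2-D1) of their 50-base windows with other class I genes.

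Tap2, a subunit of the peptide transporter, was lower in Salv cKO than in control after sham surgery, and its infarcted groups overlapped. It had 7.34, 5.28 and 9.47 CPM in total control and 10.1, 10.1 and 6.44 in total Salv cKO. Tap2 in TRAP RNA had 19.6, 12.3 and 15.8 in infarcted control, 12.4, 20.3 and 15.4 in infarcted Salv cKO, 23.1, 20.1 and 21.1 in sham control and 8.34, 3.05 and 8.36 in sham Salv cKO. The 3 sham Salv cKO libraries were the lowest of the TRAP libraries and all sham control libraries lay above all infarcted control libraries. The sham difference (change -1.68 in log2, SE 0.33, adjusted p = 0.00818) passed without each library in turn and under each other setting tried (adjusted p at most 0.0477). It rose with infarction in Salv cKO (change 1.23 in log2, SE 0.33, adjusted p = 0.0132), though not without infarcted Salv cKO library 2 (adjusted p = 0.0656) or sham Salv cKO library 2 (0.0669), and in control its fold change was -0.46 (adjusted p = 0.526). The genotype effect after infarction (0.02) was not shown to differ from that after sham surgery (interaction 1.70, adjusted p = 0.175). Tap2 was higher in TRAP than in total RNA (change 1.01 in log2, SE 0.20, adjusted p = 1.04e-04), but did not pass with library totals (adjusted p = 0.0543). Its exons overlap Gm20496 and Gm15821 on the opposite strand, so that these reads cannot be told apart either.

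**Figure D4:**
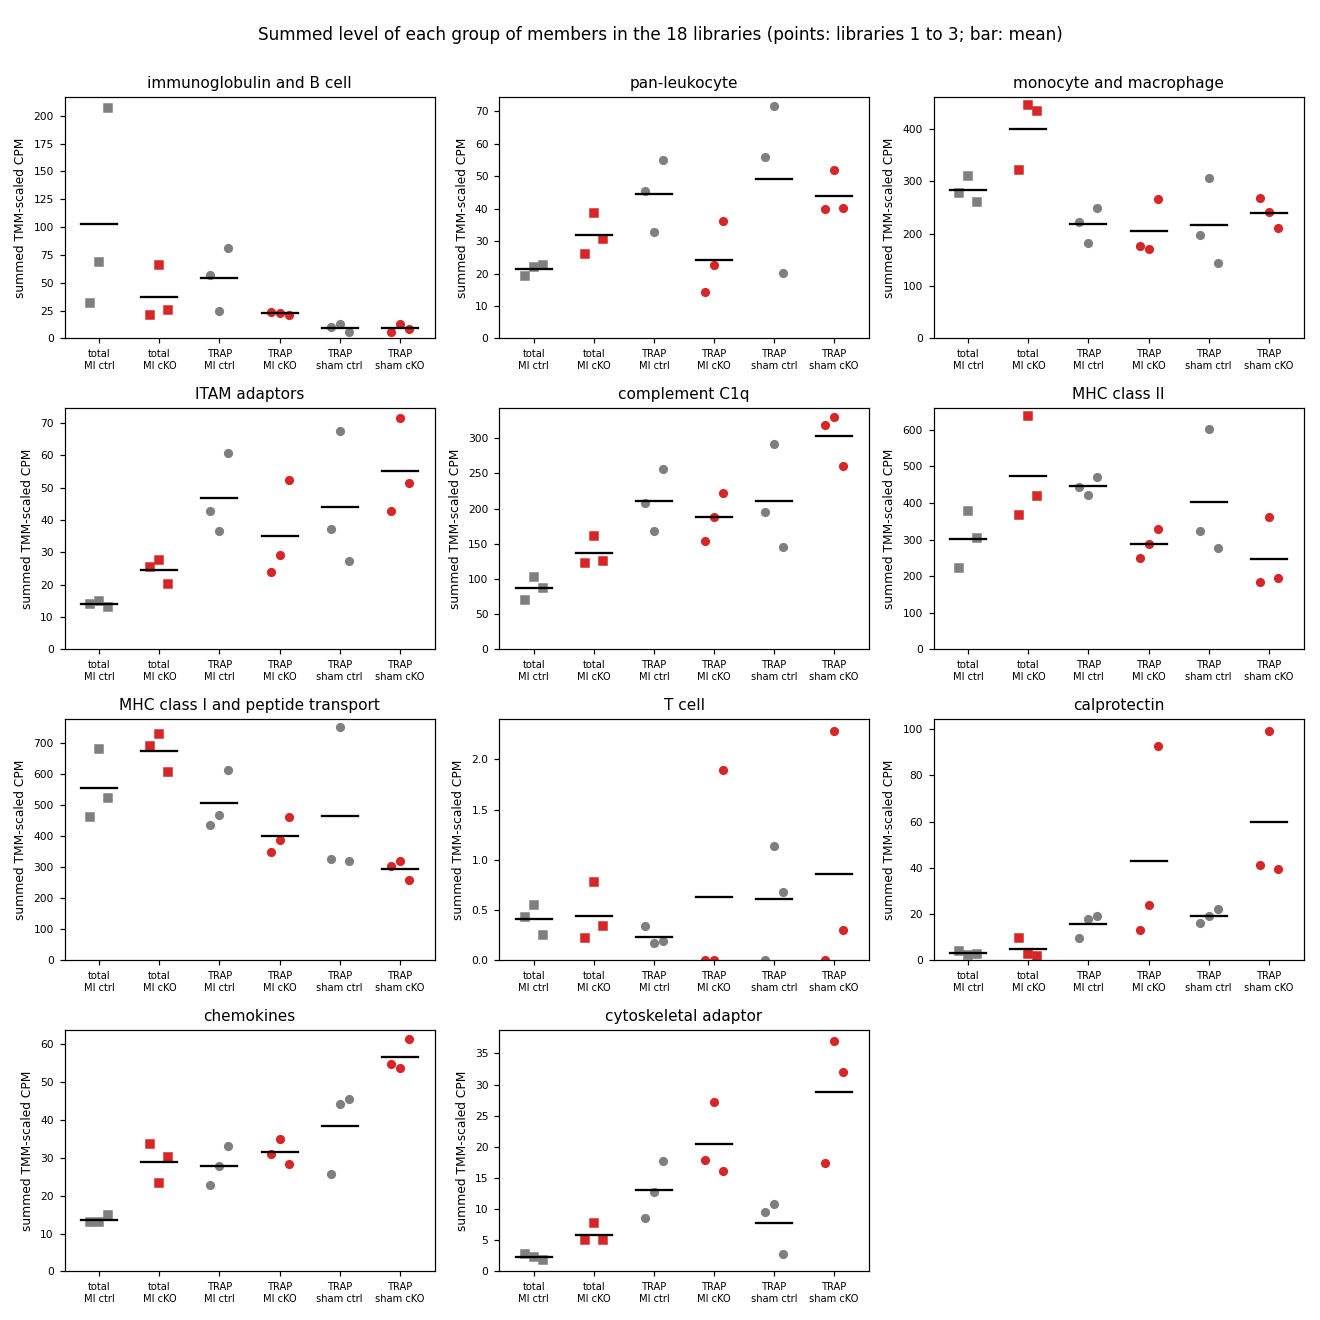
Summed level of each role group in every library (vertical axis, TMM-scaled CPM; squares total RNA, circles TRAP RNA, grey control, red Salv cKO, bar at the mean of 3). The immunoglobulin and B cell sum is under 13 CPM in all 6 sham libraries, sham control library 2 stands highest of all libraries for MHC class I (751 CPM), and the T cell sum stays under 2.3 CPM everywhere.

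Markers of T cells had few counts. Cd3e, a chain of the T cell receptor complex, had 3, 2 and 1 counts in total control, 0, 2 and 0 in total Salv cKO, 2, 1 and 0 in TRAP infarcted control, 0, 0 and 2 in TRAP infarcted Salv cKO, 0, 3 and 5 in sham control and 0, 6 and 1 in sham Salv cKO. Cd8a, the co-receptor of cytotoxic T cells, had 2 to 10 counts in libraries of total RNA and at most 6 in those of TRAP RNA. At this depth no difference between groups was detectable for either gene.

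S100a8 and S100a9 together form calprotectin, an abundant protein of neutrophils and inflammatory monocytes. S100a9 had 1.54, 1.02 and 0.846 CPM in total control and 6.72, 2.12 and 0.904 in total Salv cKO. S100a9 in TRAP RNA had 5.32, 14.03 and 13.9 in infarcted control, 8.39, 13.7 and 56.3 in infarcted Salv cKO, 12.8, 12.8 and 12.5 in sham control and 23.5, 57.1 and 23.9 in sham Salv cKO. Single libraries stood far above the others of their group, infarcted Salv cKO library 3 and sham Salv cKO library 2, and every sham Salv cKO library was above every sham control library. S100a8 had 2.71, 1.39 and 2.11 CPM in total control, 2.997, 0.782 and 0.904 in total Salv cKO, 4.47, 3.73 and 5.40 in TRAP infarcted control, 4.65, 10.1 and 36.5 in TRAP infarcted Salv cKO, 3.30, 6.24 and 9.66 in sham control and 17.8, 42.3 and 15.5 in sham Salv cKO. The same 2 libraries stood out. Both genes were higher in TRAP than in total RNA (S100a8 change 2.23 in log2, SE 0.48, adjusted p = 6.70e-04; S100a9 change 3.08 in log2, SE 0.62, adjusted p = 0.00119). Neither genotype effect passed in sham TRAP RNA (S100a8 change 1.87 in log2, SE 0.71, adjusted p = 0.194; S100a9 change 1.45 in log2, SE 0.72, adjusted p = 0.325).

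Ccl24, a chemokine that attracts eosinophils, was highest in sham Salv cKO. It had 1.41, 0.185 and 1.10 CPM in total control and 3.73, 0.894 and 2.37 in total Salv cKO. Ccl24 in TRAP RNA had 5.67, 5.68 and 3.66 in infarcted control, 4.78, 6.95 and 2.84 in infarcted Salv cKO, 11.4, 3.69 and 7.76 in sham control and 23.9, 27.05 and 20.3 in sham Salv cKO. The 3 sham Salv cKO libraries lay above the other 15 libraries. Ccl24 fell with infarction in Salv cKO (change -2.29 in log2, SE 0.38, adjusted p = 4.00e-04) and passed under each setting tried, leaving out each library included. It was higher in Salv cKO after sham surgery (change 1.66 in log2, SE 0.37, adjusted p = 0.0188), a call lost without sham control library 2 (adjusted p = 0.0722) or 3 (0.0536), sham Salv cKO library 2 (0.0816) or the 2 libraries with Y-linked counts (0.0992). The interaction of genotype and surgery did not pass (-1.68, adjusted p = 0.236). Ccl24 was also higher in TRAP than in total RNA (change 1.74 in log2, SE 0.38, adjusted p = 2.92e-04).

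Cxcl14, a chemokine made by many tissues, was the member that passed between the genotypes in total RNA. It had 11.6, 12.8 and 13.7 CPM in total control and 29.8, 22.3 and 27.8 in total Salv cKO. Cxcl14 in TRAP RNA had 17.01, 22.2 and 29.3 in infarcted control, 26.1, 27.97 and 25.6 in infarcted Salv cKO, 14.3, 40.6 and 37.7 in sham control and 30.7, 26.7 and 40.9 in sham Salv cKO. The total control libraries were within 2.1 CPM of each other and lay below all total Salv cKO libraries, while the TRAP groups overlapped. Cxcl14 was higher in Salv cKO in total RNA (change 1.10 in log2, SE 0.19, adjusted p = 0.0348), and in infarcted TRAP RNA the fold change was 0.23 (interaction -0.89, adjusted p = 0.181). The call in total RNA was lost without any library other than Salv cKO library 2 (adjusted p up to 0.236, without control library 1). Its higher level in TRAP than in total RNA (change 0.45 in log2, SE 0.15, adjusted p = 0.0101) turned to -0.14 with library totals.

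The promoter window of Cxcl14 (minus strand, chr13:56296502-56296801, RefSeq GRCm38.p6) is shown because this gene passed in total RNA; its match to the interferon-stimulated response element, 172 bases before the start on its own strand, is in capitals.
Cxcl14: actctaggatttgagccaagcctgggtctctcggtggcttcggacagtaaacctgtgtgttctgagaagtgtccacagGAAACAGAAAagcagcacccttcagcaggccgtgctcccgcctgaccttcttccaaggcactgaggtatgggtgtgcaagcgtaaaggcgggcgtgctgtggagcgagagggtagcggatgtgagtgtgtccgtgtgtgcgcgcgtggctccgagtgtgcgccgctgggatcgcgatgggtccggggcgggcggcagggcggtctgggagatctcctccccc
Both strands of 32817 windows were searched and 3.43% held this motif; among the members with a window B2m and Cxcl14 did. Igkc, Ighm, Cd52, C1qa, Ccl24 and Tap2 have no window in the table, and that of Pstpip1 held none of the 3 motifs.

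Pstpip1, an adaptor that links tyrosine phosphatases to the actin cytoskeleton in blood cells, had a positive fold change of Salv cKO over control in total RNA and in both kinds of TRAP RNA. It had 2.81, 2.31 and 1.86 CPM in total control, 4.97, 7.71 and 4.97 in total Salv cKO, 8.59, 12.8 and 17.7 in TRAP infarcted control, 17.8, 27.2 and 16.1 in TRAP infarcted Salv cKO, 9.52, 10.8 and 2.81 in sham control and 17.4, 36.95 and 31.9 in sham Salv cKO. Genotypes did not overlap in total RNA or after sham surgery, and overlapped in infarcted TRAP RNA. The genotype difference passed after sham surgery (change 2.03 in log2, SE 0.46, adjusted p = 0.0313) and not in total RNA (change 1.34 in log2, SE 0.31, adjusted p = 0.133) or infarcted TRAP RNA (change 0.66 in log2, SE 0.42, adjusted p = 0.849). The sham call was lost without Salv cKO library 2 (adjusted p = 0.123) or 3 (0.0995), without the 2 libraries with Y-linked counts (0.0620) and when only the 2 sham groups were fitted (0.0929). Pstpip1 was higher in TRAP than in total RNA of infarcted hearts, without overlap (change 2.15 in log2, SE 0.22, adjusted p = 1.01e-08).

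Per kilobase of exon, a rough scale for comparing genes, B2m had the highest mean level of the members in 5 of the 6 groups. The length takes in every annotated exon of a gene, whichever transcript holds it, so a gene with much annotated exon, such as Ptprc (18313 bases), can rank low. Short genes were also raised in TRAP RNA, as given below. In TRAP RNA of infarcted control hearts it stood at 197 ± 68.4 CPM per kb (SD, n = 3 libraries), followed by Cd74 at 116 ± 21.4, C1qa at 109 ± 27.01 and Lyz2 at 91.7 ± 14.5. Ranges over the libraries of Cd74, C1qa and Lyz2 overlapped, so their order is not fixed beyond their spread. In sham Salv cKO TRAP RNA C1qa led at 181 ± 15.7 CPM per kb and B2m followed at 131 ± 26.8. In total RNA of control the order was B2m (322 ± 65.1), Igkc (123 ± 137) and Lyz2 (114 ± 4.19), with Igkc spread from 29.9 to 281 CPM per kb. C1qa ranked 10 there and 11 in total Salv cKO. T cell genes and Cd79a were at the bottom in TRAP RNA of infarcted control.

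Short genes and genes rich in G and C were raised in TRAP RNA among the members as among all genes. Across the 35 members tested, Spearman's correlation of the log2 of TRAP over total RNA with exon length was -0.44, against -0.33 across 12794 genes. With the GC share of the longest transcript of each gene it was 0.44, against 0.34. These are correlations across genes, which share libraries and are not independent replicates. S100a9, S100a8, Tyrobp and C1qa have 522, 694, 667 and 1040 bases of exon, and Ptprc, Ccr2 and Mrc1 have 18313, 6760 and 6371. The 20 members under 2000 bases had a median log2 of 0.33, against 1.29 for all genes under 2000 bases, and the 15 longer members -0.37, against -0.31 for all longer genes. Igkc (532 bases) and B2m (860 bases) were short and had negative fold changes of -0.81 and -0.95.

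**Figure D5:**
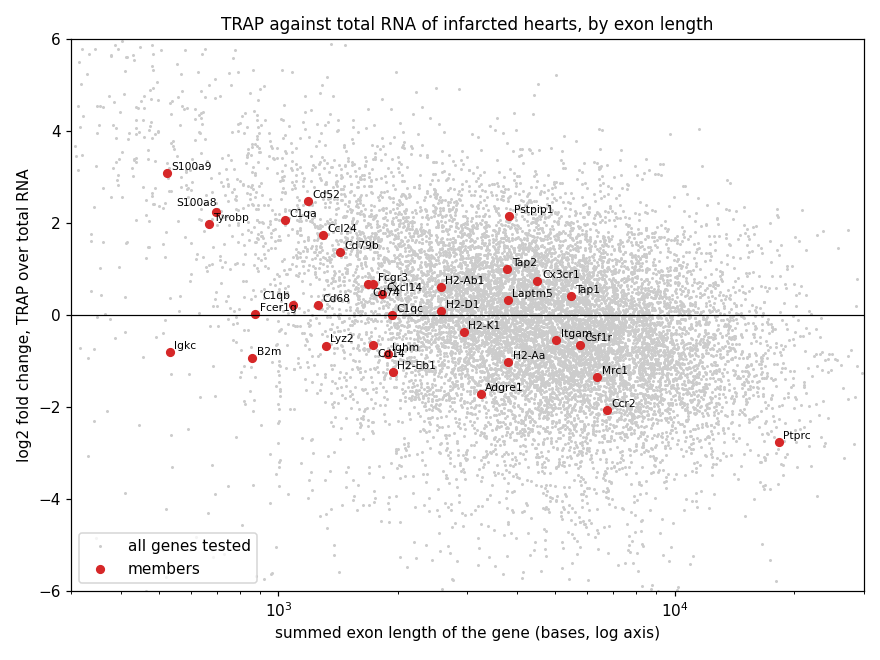
Log2 fold change of TRAP over total RNA of infarcted hearts (vertical axis) against the summed exon length of the gene in bases (horizontal log axis), for all genes with a length (grey) and the 35 members tested (red, named). The members run from S100a9 (3.08, 522 bases) to Ptprc (-2.77, 18313 bases), and the 20 under 2000 bases have a median of 0.33 against 1.29 for all genes that short; 204 of 12794 genes and no member lie outside the axes.

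The genotype effect in total RNA had a like relation. Across 12495 genes it correlated with exon length at a Spearman's rho of -0.38 and across the 34 members at -0.19. Genes under 2000 bases had a median genotype log2 of 0.34 and the 19 such members 0.69, and longer genes had -0.02 and the 15 such members 0.40. In infarcted TRAP RNA the relation over all genes had the opposite sign, with a rho of 0.18 across 11006 genes and -0.07 across the 34 members. Genes under 2000 bases had a median genotype log2 of -0.12 there and the 19 such members -0.30. Longer genes had 0.02 and the 15 such members -0.35. The interaction of genotype and kind of RNA had a rho of 0.34 across 12794 genes and -0.01 across 35 members. The part of length in the members' results was not tested beyond these splits.

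Outside the comparison of TRAP with total RNA, other genes of the same pathways passed mostly for infarction in Salv cKO hearts. With infarction in Salv cKO TRAP RNA 0 of 35 further macrophage genes rose and 7 fell, among them Fyb (log2 -1.90, adjusted p = 4.39e-04), the platelet factor gene Pf4 (-1.08, adjusted p = 7.53e-04) and the coagulation factor gene F13a1 (-1.51, adjusted p = 0.00391). Of 16 further complement genes 3 rose and 3 fell, among them the protease gene C1s1 (1.90, adjusted p = 0.00943) and the ficolin gene Fcna (-2.31, adjusted p = 0.00900). Of 11 further chemokine and receptor genes 3 fell, Ccl6 (-1.56), Cxcl12 (-2.15) and Cxcl9 (-2.64), and 0 rose. The class Ib gene H2-T23 (2.52), the plasma cell marker Sdc1 (2.12) and the interferon receptor gene Ifnar1 (0.88) rose and Ifnar2 (-1.20) fell. In the same comparison 18.2% of all genes passed.

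After sham surgery H2-T23 (log2 -2.65, adjusted p = 0.00566), H2-Q6 (-2.13) and Sdc1 (-1.93) were lower and Fcna (2.17) higher in Salv cKO, 4 genes of 133 tested in the wider lists, a share near the 2.55% of all genes. The infarction effects in Salv cKO share the sham Salv cKO libraries with this comparison. Of 133 such genes 0 passed in TRAP RNA for infarction in control, genotype after infarction or the interaction of both, and of 167 tested in total RNA 0 passed between genotypes. Between TRAP and total RNA the further macrophage genes went 9 higher and 19 lower of 45, the interferon response 5 and 21 of 34, the class I pathway 7 and 9 of 19, and chemokines and their receptors 3 and 11 of 18. These counts stand beside 34.4% higher and 39.9% lower of all genes, and the lists were not tested against that share.

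Among markers of other cells, cardiomyocyte genes went 6 higher and 3 lower of 10 in TRAP against total RNA, fibroblast genes 1 and 6 of 9, endothelial genes 1 and 6 of 8, and mural genes 1 and 4 of 6. The immune members went 14 higher and 12 lower of 35, beside 34.4% higher and 39.9% lower of all genes. With library totals in place of TMM the immune members went 7 higher and 16 lower. The difference between the sets was not tested. The erythroid gene Hba-a1 passed the interaction of genotype and kind of RNA (log2 -3.72, adjusted p = 0.0233) in the direction of Cd52 and H2-Eb1. Its relation to these members was not tested.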

How the data were processed

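RNA of 18 heart libraries in 6 groups of 3 was read on the Ion Proton. The authors deposited whole-number read counts per gene, for each library and as 1 table of 46983 genes, and the 18 files equalled that table. Reads were handled with STAR 2.5, genome mm10 and DESeq2, per the submitters' processing notes. Which tool counted the reads, with which annotation and strandedness, is not given in the sources used here.

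From the counts, edgeR 4.0.16 (limma 3.58.1, R 4.3.3) was run with filterByExpr, TMM and robust quasi-likelihood fits: 1 of the 12 TRAP libraries (11393 genes), 1 of the 6 total RNA libraries (12945) and 1 of the 12 infarcted libraries (13267). P-values were Benjamini-Hochberg adjusted over all genes of a fit, with a threshold of 0.05. Tests were two-sided. Counts of members without overlap use the scaling of each fit, and printed levels that over all 18 libraries. Library totals and floors of 3 counts are in the report.

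Values in every library are given for members that passed at least 1 of 8 comparisons and for the member with the highest mean CPM of each role; of each wider list, up to 3 passing genes with the smallest p are named per comparison, except 1 that is not reported here. The members, lists and rules were chosen with earlier results of these data known. Alternatives were DESeq2 1.42.0, its size factors, no low-count filter, scaling without mitochondrial genes, only the groups compared, a replicate block, each library left out, the 2 libraries with Y-linked counts left out and, chosen after seeing the data, library totals without TMM. Scripts were tested on simulated data. Gene positions are from GENCODE M21 and promoters from RefSeq (GRCm38.p6), where 25 of the 38 members have a window.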

Additional observations from a re-analysis of the deposited data

Results flagged for a closer look

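The genotype effect differed between TRAP and total RNA of infarcted hearts for 2 members, by the interaction term of edgeR's quasi-likelihood fit. For Cd52 the genotype log2 fold change in TRAP RNA minus that in total RNA was -2.11 (adjusted p = 0.0496), and for H2-Eb1 it was -1.65 (adjusted p = 0.0301). In total RNA all 3 Salv cKO libraries lay above all 3 control libraries for both genes. In TRAP RNA the 3 Salv cKO libraries lay below the 3 control libraries for H2-Eb1 and overlapped with them for Cd52. Neither call was stable: of the 12 fits that each left out 1 library Cd52 passed in 1 and H2-Eb1 in 4, and both calls were lost with the replicate block and with library totals. The highest adjusted p over the alternatives was 0.138 for Cd52 and 0.100 for H2-Eb1, and the fold changes stayed between -2.34 and -1.82 and between -1.81 and -1.37.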

How the results depend on the processing

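Of the 26 members that passed between TRAP and total RNA, 16 passed under every setting tried, 22 whichever library was left out, and 25 never changed sign. Cxcl14 did: with library totals its log2 was -0.14. Without the low-count filter the members passing numbered 1 for genotype in infarcted TRAP RNA, 7 after sham surgery, 9 for infarction in Salv cKO, 1 for the interaction with surgery, 7 for genotype in total RNA and 9 for the interaction with the kind of RNA. Calls over all genes rose as well, to 106, 651, 2141, 160, 363 and 302 in that order. With the filter they were 38, 291, 2069, 0, 33 and 57. DESeq2 gave 7 after sham surgery, 4 in total RNA and 5 for the interaction with the kind of RNA, where 602, 149 and 273 of all genes passed. Library totals gave 0 for infarction in control, 0 for genotype in total RNA, 0 for the interaction with the kind of RNA and 13 positive members between TRAP and total RNA. In the first 3 of these 0, 31 and 44 of all genes passed. Without the 2 libraries with Y-linked counts infarction gave 5 in control and 7 in Salv cKO (673 and 1546 of all genes), and with only the groups compared 1 and 7 (144 and 1993 of all genes). Scaling without mitochondrial genes gave 1 for the interaction with the kind of RNA, where 49 of all genes passed. The cause of these changes was not tested.

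Leaving out each library gave 0 members for genotype in infarcted TRAP RNA and for the interaction with surgery in every case, 1 to 5 after sham surgery, 0 to 4 for infarction in control, 2 to 9 for infarction in Salv cKO, 0 to 1 for genotype in total RNA, 23 to 26 between TRAP and total RNA and 0 to 3 for the interaction with the kind of RNA. Calls over all genes in these fits ranged from 104 to 378 after sham surgery and from 0 to 628 for infarction in control. They ranged from 1100 to 2005 for infarction in Salv cKO, 17 to 45 in total RNA and 16 to 140 for the interaction with the kind of RNA. For genotype in infarcted TRAP RNA they ranged from 22 to 35, for the interaction with surgery from 0 to 18 and between TRAP and total RNA from 9702 to 9950. Positive members ranged from 7 to 13 for genotype in infarcted TRAP RNA, 28 to 32 in total RNA, 19 to 21 between TRAP and total RNA and 4 to 6 for the interaction with the kind of RNA, and members higher at an unadjusted p under 0.05 in total RNA from 13 to 20.

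Residuals of same-numbered libraries correlated at a mean of -0.0017 in TRAP RNA, -0.0396 in total RNA and -0.0244 in infarcted hearts. For libraries with different numbers the means were 0.0008, 0.0192 and 0.0122. These means take in pairs of different genotype or surgery, so they cannot decide whether a number marks a shared heart. With the replicate number as a block the members passing were 0 for genotype in infarcted TRAP RNA, 4 after sham surgery, 2 and 4 for infarction in control and Salv cKO, 0 for the interaction with surgery, 1 in total RNA, 25 between TRAP and total RNA and 0 for the interaction with the kind of RNA. Of all genes 39, 373, 408, 2106, 0, 59, 9504 and 19 passed with the block, in that order. Without it 38, 291, 123, 2069, 0, 33, 9847 and 57 did. Depth limits Cd79a, Cd3e and Cd8a, which had at most 13 counts in a library.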
